A study of Mus musculus with 8 samples.

Results

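The genes described here are 9 that mark neurons of the thalamus: Tcf7l2, Lef1, Rora, Plekhg1, Prkcd, Gbx2, Zic1, Synpo2 and Ptpn3. They were taken by symbol: every probe set whose only gene symbol on the platform is one of these names was kept. That gave 27 probe sets for 9 genes, out of 34945 probe sets with 1 symbol and 18193 genes. All samples came from mice of the transgenic BAC line Hcrt JD218, of mixed Fvb and c57/bl6j strain, in which ribosomes of hypocretin neurons carry a tag. Translating ribosome affinity purification (TRAP) then pulls down the RNA bound to those ribosomes. 4 immunoprecipitates (IP) of this RNA were set against the 4 unbound fractions of those preparations, used as total RNA of the dissected tissue. Both fractions came from thalamus and hypothalamus dissected together from adults of 6 to 12 weeks and both sexes, and each sample pooled 5 mice. Every array, unbound ones included, is therefore from transgenic tissue, and precipitates of tissue without a tagged ribosome were not analysed here.

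The thalamus relays sensory and motor signals to the cortex, and most of its neurons are glutamatergic. Hypocretin neurons lie outside it, in the lateral hypothalamus. In the mouse, thalamic neurons are set apart from their neighbours by transcription factors that several of these genes encode, and TCF7L2, a partner of beta-catenin, is needed for thalamic neurons to take on and keep their adult expression pattern. Because thalamus and hypothalamus were dissected together, thalamic RNA is part of the unbound fraction, and the comparison asks how much of it remained in the precipitate of a hypothalamic cell type. In such bulk samples fewer cells of a type and less RNA per cell cannot be told apart, nor can a difference in cell type and one in ribosome binding.

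The purification itself is read from Hcrt, the gene of the hypocretin peptides, with log2 means of 15.36 ± 0.17 in the IP and 10.33 ± 0.55 in unbound RNA (SD, n = 4 per fraction), 32.5-fold higher in the IP (limma adjusted p = 6.46e-07). Values are log2 values as deposited, shifted by 1 small constant per group so that the biotinylated hybridisation controls have equal means. A linear value of 50, or 5.64 on the log2 scale, was the minimum for a measured level. On single IP arrays 33.6% to 34.8% of probe sets reached it, and 40.5% to 40.9% did so on single unbound arrays. The number of arrays limits the precision.

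All 9 genes were lower in the IP, by a median of -2.81 on the log2 scale, and 0 were higher. A call needed a limma adjusted p below 0.05, with Benjamini-Hochberg adjustment over 17865 tested probe sets, and at least 2-fold. Each gene was read from the tested probe set that was brightest on average across all 8 arrays. Among all 10398 tested genes 44.2% were called lower and 4.74% higher, and the median change was -0.85. A shift of the whole scale moves every gene: centring each array on its median moves the median probe set by 0.92 and gives 49.2% of all calls higher, against 9.76% on the scale used here, and the share is 45.4% after quantile normalization, which moves that median by 0.84. Relative to the median of all genes the members' median was -1.96. Among the 7 members measured at or above 50 on all 8 arrays, single genes lay between -2.51 for Tcf7l2 and -0.77 for Prkcd on that relative scale.

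17 of the 27 probe sets reached 50 on at least 4 arrays and were tested. All 17 did so on each of the 4 unbound arrays, so a probe set could pass through the unbound fraction alone. All 17 were called lower, where 45.1% of all tested probe sets were, and 0 higher, where 4.88% were. The IP lay under the unbound fraction on every array for 8 of 9 genes, against 50.6% of all genes, and for 14 of 17 probe sets, against 50.1% of all probe sets. Every member was lower in the IP of each of the 4 preparations, as were 63.9% of all genes. The members were named with earlier results of these data known, so these counts describe them and are no independent support for their direction.

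**Figure D1:**
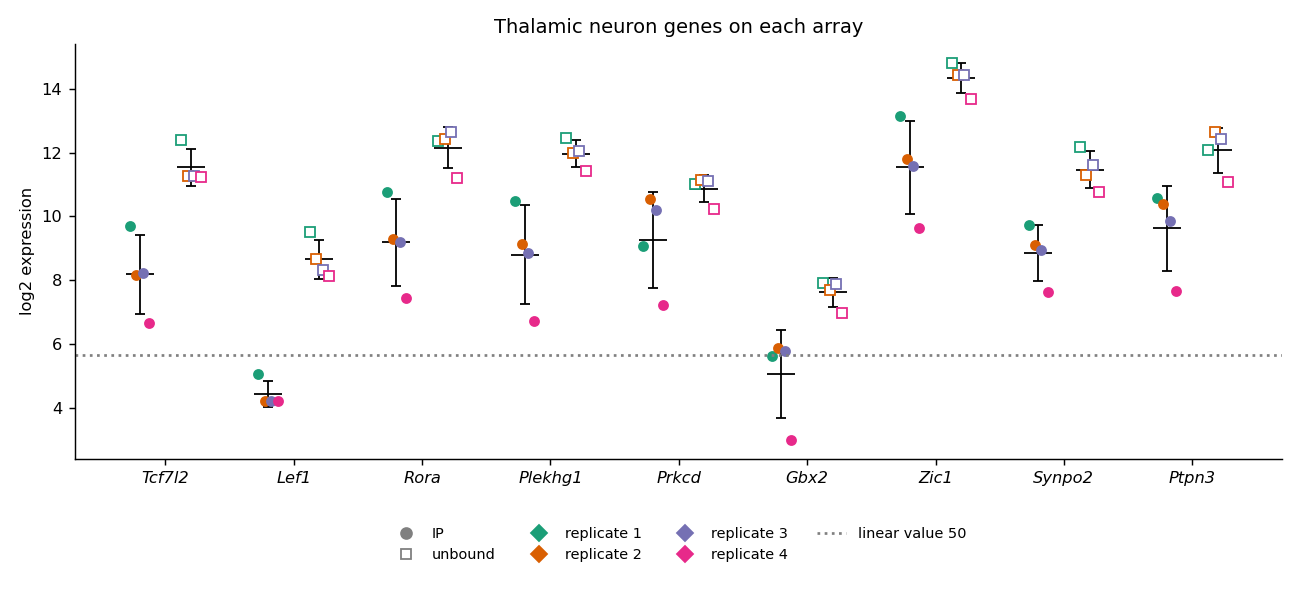
log2 expression of the 9 genes on each array, IP (filled circles) left of unbound (open squares), coloured by replicate, with the mean and SD of each group of 4 as black bars. The dotted line is the linear value 50. IP values lie under the unbound values for every gene except Prkcd, where they overlap, and replicate 4 is the lowest unbound array for all 9 genes.

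The TCF/LEF factors bind DNA through an HMG box and switch genes on together with beta-catenin at the end of the Wnt pathway. Tcf7l2 (chr19:55741797-55933659, GRCm38.p6) had 9.69, 8.16, 8.22 and 6.67 in IP replicates 1 to 4, against 12.39, 11.26, 11.27 and 11.23 in unbound replicates 1 to 4, on the log2 scale. The groups did not overlap, and replicate 1 was the highest array of each. That is 10.2-fold lower in the IP (log2 fold change -3.35 ± 0.55 SE, limma adjusted p = 0.000479). Within preparations Tcf7l2 was lower by 6.51-, 8.55-, 8.28- and 23.5-fold in replicates 1 to 4. A second Tcf7l2 probe set reached 50 on 3 of 4 IP arrays and was at least 7.62-fold lower, and the third reached it on 1 of 4 and was at least 4.40-fold lower. The fourth stayed between 2.47 and 3.87 in the IP and between 2.82 and 5.69 in the unbound fraction and was not tested.

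Lef1 (chr3:131110297-131224357) had 5.05, 4.22, 4.22 and 4.22 in the IP, against 9.51, 8.67, 8.31 and 8.14 in the unbound fraction. It was thus under 50 on all 4 IP arrays, where its values have no order, and well above it on all 4 unbound arrays. Its fold is a bound: at least 8.14-fold lower in the IP, computed against 50. The fit itself used the values before raising (log2 fold change -4.23, limma adjusted p = 9.22e-06). In it IP replicates 2 to 4 had the same value of 4.22, under 50, so the small IP spread is not one of measured levels. The other Lef1 probe set was near the lowest values of the IP arrays and lay between 4.95 and 5.03 in the unbound fraction, under 50 on all 8.

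Sequences at the starts of these genes are shown for the factors of the TCF/LEF family themselves. RefSeq windows of GRCm38.p6, 250 bases before to 50 after an annotated start, were searched on both strands for CTTTGA and CTTTGT, letters that TCF/LEF factors bind, and for AGGTCA, the core that ROR receptors bind. The 9 genes had 14 windows, 2 of which, both of Lef1, overlap each other. 4 of the 14 windows (28.6%) held CTTTGA or CTTTGT, where 31.2% of all 32851 windows did, and 0 held AGGTCA, where 16.3% of all did. The windows with a match were 1 of Tcf7l2, 1 of Lef1 and both of Prkcd. In Tcf7l2 and Lef1 the match lay at an annotated start inside the gene, not at its first start. These windows are given 5′ to 3′ on the plus strand, chr19:55895071-55895370 for Tcf7l2 and chr3:131156044-131156343 for Lef1, with the matched letters of either strand in capitals.
Tcf7l2: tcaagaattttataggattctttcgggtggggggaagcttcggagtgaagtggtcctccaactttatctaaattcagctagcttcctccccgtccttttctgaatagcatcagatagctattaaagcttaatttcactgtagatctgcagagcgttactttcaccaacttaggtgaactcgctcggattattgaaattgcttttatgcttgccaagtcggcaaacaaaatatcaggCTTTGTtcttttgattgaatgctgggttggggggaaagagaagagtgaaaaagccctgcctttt
Lef1: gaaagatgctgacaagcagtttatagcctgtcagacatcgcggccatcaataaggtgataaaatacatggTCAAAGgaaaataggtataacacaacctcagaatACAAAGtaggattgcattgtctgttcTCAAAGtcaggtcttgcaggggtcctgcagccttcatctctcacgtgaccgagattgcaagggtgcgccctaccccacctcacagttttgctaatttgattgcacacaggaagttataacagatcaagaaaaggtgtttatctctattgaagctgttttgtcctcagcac
The Lef1 window held 3 matches and the Tcf7l2 window 1, and a match is a description of the letters, not a binding site.

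Rora (chr9:68653404-69388246) encodes a nuclear receptor, RAR-related orphan receptor alpha, which in the mouse marks sensory relay nuclei of the thalamus. Its IP values were 10.76, 9.30, 9.21 and 7.45, against 12.35, 12.43, 12.64 and 11.20 in the unbound fraction. IP replicate 1 came closest to the unbound arrays, and replicate 4 was the lowest array of each group. Rora was 7.85-fold lower in the IP (log2 fold change -2.97 ± 0.60 SE, limma adjusted p = 0.00164). With 9 probe sets it is the member with the most, and 6 were tested. A second probe set measured on all 8 arrays was 9.53-fold lower, and the others at least 3.75-, 6.41-, 10.1- and 12.0-fold. The fitted 95% intervals of all 6 shared the range from -3.98 to -3.61 on the log2 scale. Both ends came from probe sets with IP values under 50, fitted without raising them, so the shared range does not show that the probe sets agree. The probe set with the bound of 12.0 was under 50 on all 4 IP arrays and had 11.09, 9.21, 8.27 and 8.32 in the unbound fraction. The 3 untested Rora probe sets stayed between 2.15 and 2.46 on all 8 arrays, near the lowest values of the arrays. Which transcripts of Rora each probe set reads was not analysed here.

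Gbx2 and Zic1 are developmental factors. Gbx2 (chr1:89927962-89931176), a homeobox factor that mouse thalamic neurons need for their differentiation, had 5.63, 5.86, 5.79 and 2.99 in the IP, against 7.91, 7.69, 7.89 and 6.97 in the unbound fraction. Only IP replicates 2 and 3 reached 50, so the fold is at least 3.70 lower (limma adjusted p = 0.00386). After quantile normalization it gave -1.38 on the log2 scale and was no longer called (limma adjusted p = 0.0729). Zic1 (chr9:91358058-91365768), a zinc finger factor of the dorsal neural tube and of several adult brain regions, had 13.14, 11.79, 11.58 and 9.62 in the IP, against 14.81, 14.44, 14.44 and 13.69 in the unbound fraction. The groups stood apart, although Zic1 remained far above 50 on every IP array. It was 7.01-fold lower (log2 fold change -2.81 ± 0.60 SE, limma adjusted p = 0.00229), and its second probe set was 7.17-fold lower.

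The remaining members act in signalling and in the cytoskeleton. Plekhg1 (chr10:3740251-3967303), which encodes a signalling protein, had 10.49, 9.14, 8.85 and 6.73 in the IP, against 12.46, 11.98, 12.04 and 11.41 in the unbound fraction. All 4 IP values lay under all unbound values, and it was 8.99-fold lower (log2 fold change -3.17 ± 0.64 SE, limma adjusted p = 0.00167). Synpo2 (chr3:123076519-123236168), an actin-binding protein of the synaptopodin family, had 9.72, 9.10, 8.93 and 7.63 in the IP, against 12.16, 11.30, 11.60 and 10.77. It was 6.13-fold lower (log2 fold change -2.61 ± 0.44 SE, limma adjusted p = 0.000538), again with no overlap of the groups. Its 3 other probe sets stayed under 50 on all arrays.

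Ptpn3 (chr4:57190841-57339040), a cytoplasmic protein tyrosine phosphatase, had 10.56, 10.40, 9.86 and 7.66 in the IP, against 12.09, 12.66, 12.43 and 11.09 in the unbound fraction. The groups did not overlap, and the change was 5.44-fold lower (log2 fold change -2.44 ± 0.60 SE, limma adjusted p = 0.00516). Centred on the array medians it was -1.52 and missed the threshold (limma adjusted p = 0.0520). Prkcd (chr14:30595353-30626414), the delta isoform of protein kinase C and a widely used marker of thalamic relay neurons, had 9.06, 10.56, 10.19 and 7.23 in the IP, against 11.02, 11.13, 11.11 and 10.23 in the unbound fraction. Here the groups overlapped, since IP replicate 2 lay above unbound replicate 4. Prkcd was 3.06-fold lower (log2 fold change -1.61 ± 0.63 SE, limma adjusted p = 0.0442), by 3.88-, 1.48-, 1.90- and 8.02-fold within preparations. Its call was the least firm of the 9: it was lost in 12 of 23 alternatives, among them those without IP replicate 1 (limma adjusted p = 0.0901), IP replicate 4 (a log2 fold change of -0.93, limma adjusted p = 0.0560) and unbound replicates 1, 2 or 3 (limma adjusted p of 0.0911, 0.0949 and 0.0916). The loss was clearest on other scales. Centred on the array medians Prkcd was -0.69 (limma adjusted p = 0.363), and after quantile normalization -0.86 (limma adjusted p = 0.239). Without both arrays of replicate 4 it was -1.15 and still called. The 12 losses include the 4-fold threshold, which an estimate of 3.06-fold cannot reach. These fits did not pair the 2 fractions of a preparation. With the replicate number as a block, Prkcd was -1.61 ± 0.37 SE and still called (limma adjusted p = 0.00437). The second Prkcd and the second Plekhg1 probe set were under 50 on all 8 arrays.

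**Figure D2:**
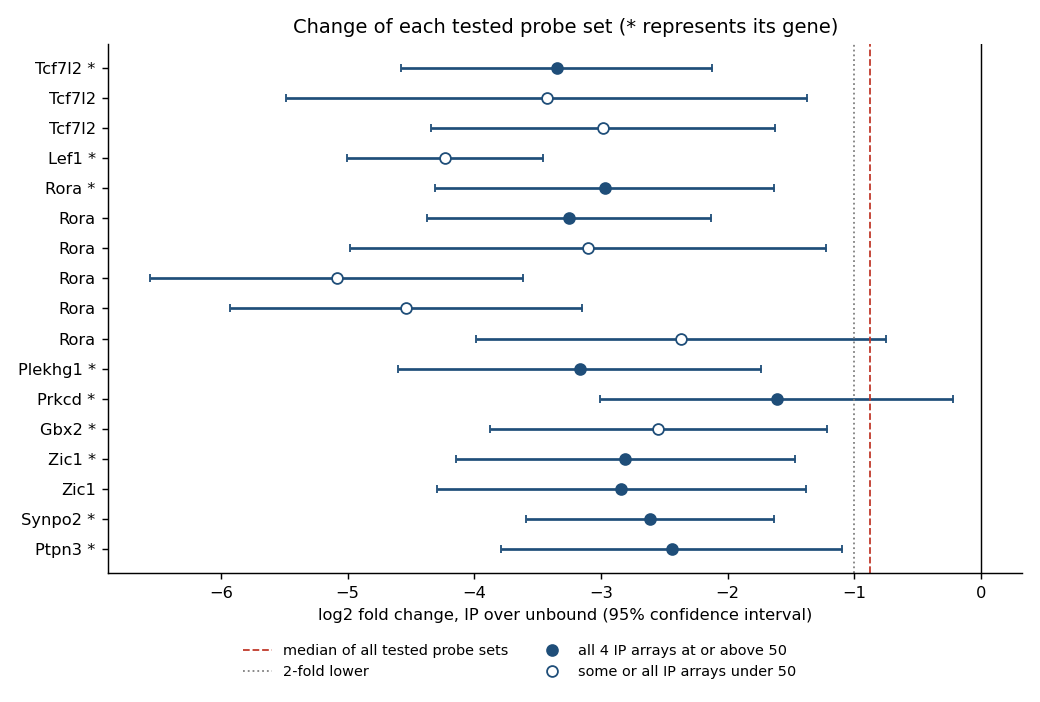
log2 fold change, IP over unbound, of the 17 tested probe sets with the 95% confidence interval from limma. Open circles had some or all IP arrays under 50. The dashed line is the median of all tested probe sets at -0.87. Every estimate is under -1, and the interval of Prkcd reaches furthest toward 0.

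Among the 7 genes measured on all 8 arrays the order of the change was Tcf7l2, Plekhg1, Rora, Zic1, Synpo2, Ptpn3 and Prkcd. Differences between these genes were not tested. The 95% intervals of all 7 shared the range from -3.01 to -2.12. Because the genes were read on the same arrays, this overlap does not show that their changes were alike.

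The spread between unbound replicates was wider for the members than for most probe sets. Their SD over the 4 unbound arrays had a median of 0.57 on the log2 scale and ran from 0.43 for Plekhg1 and Prkcd to 0.69 for Ptpn3. The median SD of the 16980 probe sets measured on all 4 unbound arrays was 0.36, and all 9 members lay above it. Their place among those probe sets ran from 62.0% with an SD at or below that of Plekhg1 to 88.9% for Ptpn3. Other probe sets of Tcf7l2 and Rora spread more, with an SD of 1.31 for a Tcf7l2 probe set that had 9.42, 8.17, 7.50 and 6.29 in the unbound fraction, and 1.32 for the Rora probe set given above. The spread had a shared direction. Unbound replicate 4 was the lowest of the 4 for all 9 members, as it was for 23.5% of all tested genes. Unbound replicate 1 was the highest for 6 of 9, as it was for 17.4% of all. Without unbound replicate 4 the members' median SD was 0.26, and 0.30 over all those probe sets. Without unbound replicate 1 it was 0.43.

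The IP arrays spread further. The SD over the 4 IP arrays of the 7 members measured on all of them had a median of 1.36, against 0.37 for the 14067 probe sets measured on all IP arrays, and all 7 members measured on all 8 arrays had a larger SD in the IP than in the unbound fraction, as did 55.5% of all genes. Of the 7 members measured on all IP arrays, Synpo2 had an SD larger than 96.4% of those probe sets and the other 6 larger than at least 99.5%. In each of the 8 members that reached 50 on an IP array, replicate 4 was the lowest IP array, where 27.6% of all genes had it lowest. Replicate 1 was the highest in 6 of these 8, and replicate 2 in Prkcd and Gbx2. The median member deviated from its group mean by -1.91 on IP replicate 4, and 0.51% of all tested genes had a deviation as low or lower there. On IP replicate 1 this deviation was 0.94. Without IP replicate 4 the median SD of these 7 was 0.84 in the IP, and 0.31 over all probe sets measured there.

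**Figure D3:**
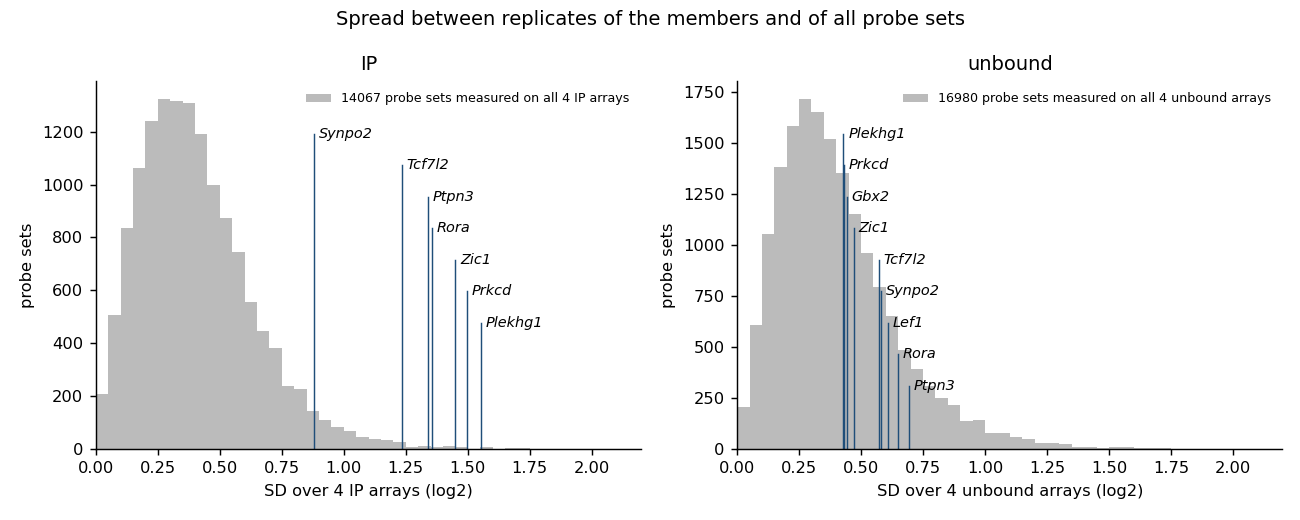
Histograms of the SD over the 4 IP arrays (left) and the 4 unbound arrays (right) for all probe sets measured on all arrays of the group (linear value 50 or more), on the log2 scale. Blue lines mark the members measured there. In the IP, 6 of 7 members lie at or beyond 1.23, far right of the bulk, and in the unbound fraction all 9 lie between 0.43 and 0.69.

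The size of the difference varied by preparation. With values under 50 raised to 50, the median log2 difference of the members, IP minus unbound, was -1.97 in replicate 1, -2.65 in replicate 2, -2.68 in replicate 3 and -3.43 in replicate 4. Over all tested genes these medians were -0.78, -0.79, -0.72 and -0.80. With both arrays of replicate 4 left out, 9 of 9 members were still called lower, with a median of -2.44, and with both of replicate 1 left out 8 were, with a median of -3.19, Prkcd being the one lost. Over all tested genes 42.9% were called lower without replicate 4 and 43.7% without replicate 1.

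Other measures also differed between preparations. Hcrt was at 15.10, 15.39, 15.43 and 15.50 in IP replicates 1 to 4, lowest where the members were highest. 6 genes of hypocretin neurons, all called higher, where 4.74% of all tested genes were, gave a median pair difference of 3.89 in replicate 1 and 4.55 in replicate 4. These 6 were listed with earlier results of these data known, so their direction is no independent support. Beside Hcrt the largest changes among them were in Pcsk1, a prohormone convertase (41.0-fold higher), the prodynorphin gene Pdyn (23.7-fold) and the pentraxin Nptx2 (14.1-fold). Oligodendrocyte genes, 9 of 9 called lower, averaged 9.40 to 10.96 in the IP and 12.38 to 12.81 in the unbound fraction, with a median pair difference of -1.29 in replicate 1 and -2.92 in replicate 4, values under 50 raised to 50. Over all tested genes 44.2% were called lower, which is the share to set beside the counts of these cell type lists. Ermn and Mobp of myelin-forming cells were 9.51- and 7.29-fold lower, Ugt8a 5.77-fold and Opalin 4.46-fold. Astrocyte genes, 10 of 10 lower, averaged 6.51 to 8.13 in the IP and 10.04 to 10.12 in the unbound fraction, with pair differences of -1.69 in replicate 1 and -3.35 in replicate 4. The water channel Aqp4 was 8.21-fold and the growth factor receptor Fgfr3 7.91-fold lower, Gfap at least 13.1-fold with 1 of 4 IP arrays at or above 50, and Sox9, under 50 on all IP arrays, at least 5.51-fold.

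Microglial genes, 7 of 7 called lower where 44.2% of all tested genes were, averaged 5.03 to 6.62 in the IP and 8.18 to 8.74 in the unbound fraction. Laptm5 was 7.25-fold lower, and C1qa, Cx3cr1 and C1qc, each under 50 on all IP arrays, at least 5.25-, 3.78- and 2.75-fold. Endothelial and mural genes, 4 of 4 called lower beside the same 44.2%, averaged 4.30 to 5.76 in the IP and 7.22 to 7.81 in the unbound fraction. Rgs5 of pericytes was 4.48-fold lower, Pdgfrb at least 4.52-fold with 2 of 4 IP arrays at or above 50, and Slco1a4 and Cldn5, under 50 on all IP arrays, at least 2.15- and 1.68-fold.

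A sign of RNA quality was the 3′ minus 5′ signal of 2 control genes, and that of Gapdh was highest on replicate 4 of both fractions. It was 2.31, 2.12, 2.27 and 4.50 on the log2 scale in IP replicates 1 to 4, against 2.08, 1.97, 1.94 and 3.36 in the unbound replicates. For Actb it was 4.05, 3.14, 3.53 and 4.11 in the IP, against 3.01, 3.29, 3.45 and 3.80 in the unbound replicates, so that IP replicates 1 and 4 were nearly level. The part of RNA quality and of other cells' RNA in the members' values was not tested.

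The unbound arrays differed in other markers of the region too. 12 tested genes of hypothalamic peptides had a median deviation from the group mean of -0.59, 0.39, 0.45 and -0.28 in unbound replicates 1 to 4, where the members had 0.46, 0.08, 0.15 and -0.65. By these medians unbound replicate 1 was the highest array for the members and the lowest for the peptide genes, and replicate 4 lay under the mean in both lists. Single genes departed from this: 9 of the 12 peptide genes were lowest on unbound replicate 1, 2 on replicate 4 and 1 on replicate 3, and 6 of the 9 members were highest on replicate 1. Of these peptide genes 9 were called lower in the IP and 1, Hcrt, higher, where 44.2% of all tested genes were lower and 4.74% higher. The 2 that were not called, named after their values were seen, were Pomc (-0.21, limma adjusted p = 0.449) and Gal (-0.05, limma adjusted p = 0.909). Crh, the corticotropin-releasing hormone gene, was 12.4-fold lower, the vasopressin gene Avp 9.70-fold, and Tac2, at or above 50 on 3 of 4 IP arrays, at least 10.7-fold.

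**Figure D4:**
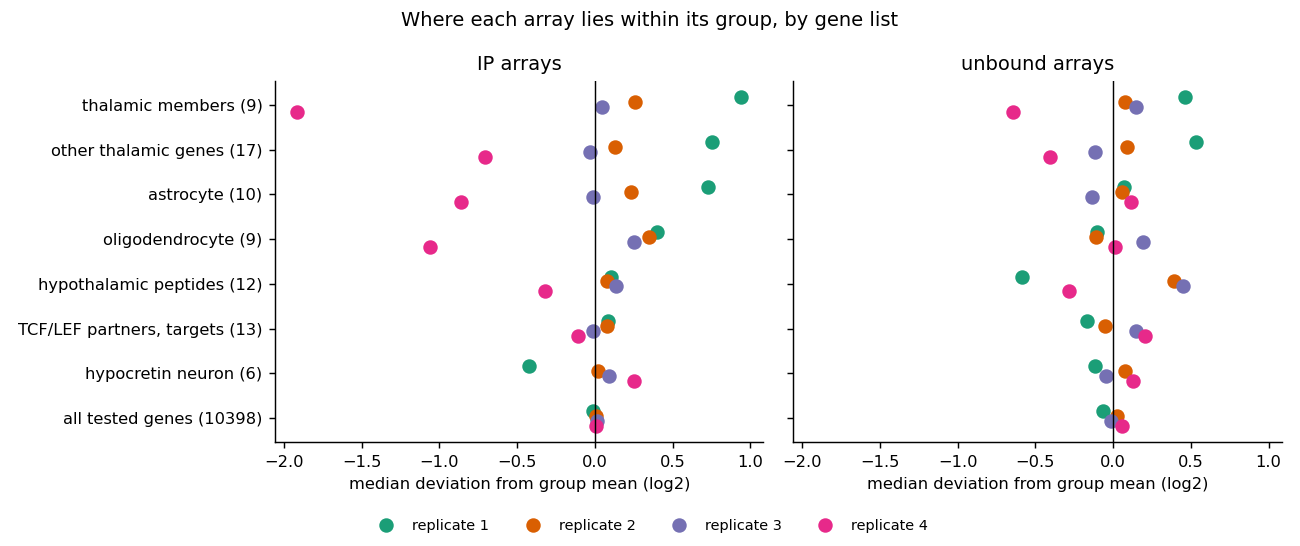
Median deviation of each gene list from its group mean on each array (log2), IP arrays left and unbound arrays right, coloured by replicate, with the number of tested genes in brackets. On the IP arrays replicate 4 is lowest at -1.91 for the members and lies under 0 for the glial lists, while it is highest for the hypocretin neuron genes and near 0 over all tested genes.

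Other thalamic genes were mostly lower too. Of 22 listed, 17 were tested and are not members. 14 were called lower and 0 higher, with a median of -2.22, against 44.2% and a median of -0.85 over all genes. Like every gene list here, this one was chosen with earlier results of these data known, so its direction is no independent support. The direction was not particular to thalamic genes, since all tested astrocyte, oligodendrocyte and microglial genes above were called lower. Slitrk6, a neuronal membrane protein that reached 50 on 3 of 4 IP arrays, was at least 10.5-fold lower (limma adjusted p = 6.31e-05). The homeobox factor Shox2 was 9.72-fold lower (limma adjusted p = 0.00569), the troponin Tnnt1 8.42-fold and Gabra4, a subunit of extrasynaptic GABA-A receptors, 6.47-fold. The 3 that were not called, named after their values were seen, were Slc17a6, the vesicular glutamate transporter of thalamus and hypothalamus (-0.69), the T-type calcium channel Cacna1g (-0.36) and Calb2, which encodes calretinin (0.13). The median deviation of the 17 genes was 0.75 on IP replicate 1 and -0.71 on IP replicate 4, of the same sign as the members'.

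Partners and targets of the TCF/LEF factors were counted for the pathway. Of 13 tested genes 9 were called lower and 0 higher, where 44.2% of all genes were called lower. Their median was -1.58 with values under 50 raised to 50, against -0.78 over all genes. The 4 that were not called, named after their values were seen, were the corepressors Tle2 (-0.38) and Tle4 (-0.26), Pygo2 of the beta-catenin complex (-0.62) and the beta-catenin inhibitor Ctnnbip1 (0.14). Axin2, a feedback target of Wnt signalling, was under 50 on all 4 IP arrays and at least 11.3-fold lower, and the target Nkd1, with 1 IP array at or above 50, at least 4.79-fold. Bcl9, which links beta-catenin to its coactivators, was under 50 on all IP arrays and at least 2.81-fold lower. Apc, which helps break down beta-catenin, was 6.66-fold lower (log2 fold change -2.73 ± 0.43 SE, limma adjusted p = 0.00038). On IP replicate 4 the list deviated by -0.11 from its group mean, where the members deviated by -1.91.

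Genomic length went with the change over all genes. Genes were put in 5 equal groups by length. The median log2 fold change was -1.54 in the group of longest genes, where 66.5% were called lower, and -0.13 in that of the shortest. 6 of the members fall in the longest group, among them Rora at 734.8 kb, while Prkcd lies in the middle group and Gbx2 and Zic1, at 3.21 and 7.71 kb, in the shortest. All 9 were lower than the median of their own length group. With values under 50 raised to 50 for every gene, 1.20% of genes in its group had a change at or below that of Tcf7l2 and 17.6% at or below that of Prkcd. For the short genes Gbx2 and Zic1 these shares were 8.33% and 2.02%, and for Lef1, whose change is a bound, 4.09%. The IP arrays also differed by length: the median deviation from the group mean was 0.21 in the longest and -0.18 in the shortest group on replicate 1, and -0.11 in the longest and 0.03 in the shortest on replicate 4. The part of length in the members' change was not tested.

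**Figure D5:**
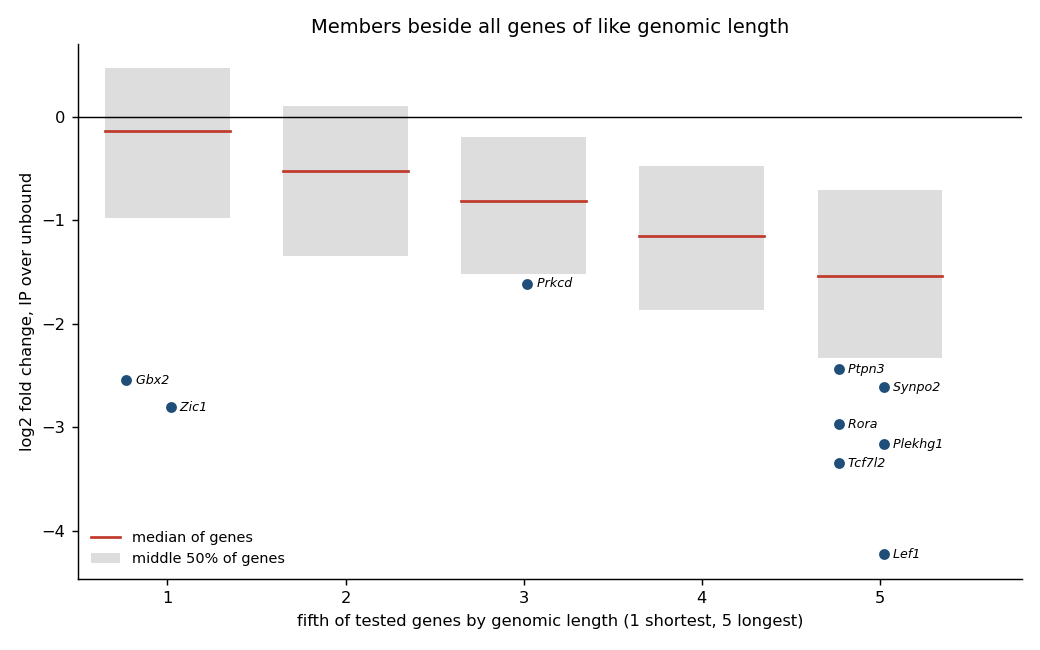
log2 fold change, IP over unbound, of the 9 genes (blue points, spread sideways for legibility) beside all tested genes in 5 groups of genomic length. Grey boxes hold the middle 50% of genes and red lines the median, which runs from -0.13 in the shortest group to -1.54 in the longest. Fitted values are drawn for every gene, those of Lef1 and Gbx2 from IP values partly or wholly under 50. Every member lies under the grey box of its group.

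The genes with the most similar pattern were found by the root mean square difference between profiles over the 8 arrays, each profile taken minus its own mean and set against the mean profile of the 9 members. The closest of 10389 other genes were Apc (0.18 on the log2 scale), the ribosomal S6 kinase Rps6ka3 (0.19), the GABA-A receptor subunit Gabrb2 (0.20), the forkhead factor Foxn2 (0.23) and the phosphatase Ptpn4 (0.23), where the median of those genes was 1.35. The mean profile includes the IP values of Lef1 and Gbx2 that were under 50. Among the 7 members measured on all arrays Zic1 and Synpo2 were nearest to it (0.24 and 0.25) and Prkcd farthest (0.88). Gabrb2 had 10.89, 9.99, 9.72 and 8.25 in the IP, against 12.75, 12.68, 12.67 and 12.27 in the unbound fraction, with replicate 4 lowest in each.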

How the data were processed

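RNA of 4 immunoprecipitates and 4 unbound fractions was amplified in 2 cycles and hybridised to 1 Affymetrix mouse array per sample, per the labels' protocols. The authors deposited 1 log2 value per probe set and array. They used GCRMA, per the submitters' processing notes (version not given in the sources used here), separately for each group per the design text, so arrays of a group share a scale and the groups do not. 1 constant per group was therefore subtracted to give 18 biotinylated hybridisation controls equal means, following the submitters' advice (they differed by 0.02 as deposited, IP minus unbound). Control probe sets were left out. Probe sets at or above a linear 50 on at least 4 arrays entered limma 3.58.1, run in R 4.3.3 (lmFit, eBayes with trend, no block). Folds against values under 50 are bounds, with those values raised to 50. An adjusted p printed beside a bound comes from the limma fit on the values before raising.

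Names came from the platform annotation, lengths, coordinates and promoter windows from RefSeq (GRCm38.p6, 99.8% of tested genes had a length, and all 9 members had a window). Members and lists were chosen with earlier results of these data known. The naming rule takes all members, Hcrt, up to 4 called genes of each list with the largest change, and the 5 genes of most similar profile. Genes outside it are marked.

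A replicate number is shared by both fractions of a preparation, per the design text. Deviations from group means correlated at 0.44, 0.33, 0.25 and 0.59 across probe sets between same-numbered arrays. The highest correlation with an array of another number was -0.06, 0.26, 0.26 and -0.10 for replicates 1 to 4. For replicate 3 that was 0.257 against 0.255, so the values do not single out its stated partner. Alternatives concerned the scale (values as deposited, centred on medians, quantile-normalized), the minimum (none or 100), eBayes without trend, the fold threshold (none or 4), the replicate block, averaging the probe sets of a gene, and omitting single arrays. Chosen after seeing the data were a scale set on 24 poly-A controls, fits that omit a whole preparation, IP spreads that omit 1 array, and pair differences, list medians and ranks with all values under 50 raised to 50. Figures used matplotlib 3.10.9 under Python 3.11.15.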

Additional observations from a re-analysis of the deposited data

Results flagged for a closer look

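In 5 of 32 groups of 4 arrays examined over the tested member probe sets, 1 array stood far from the other 3, with a gap over the group's range above Dixon's 95% critical value for 4 samples. Chance gives about 1 in 20 such groups, and groups under 50 on all 4 arrays were not examined. The probe sets of a gene and the members among themselves share arrays, so these groups are not independent. Unbound replicate 1 stood above the others for the main Tcf7l2 probe set (ratio 0.964), with 12.39 where the next array had 11.27. IP replicate 1 stood above the others for another Tcf7l2 probe set (0.895), where it was the 1 IP array at or above 50. The other 3 arrays, at 4.45 to 4.61, were under 50, so this ratio rests partly on values that were not measured. Replicate 4 stood below the others in the unbound fraction for a Rora probe set (0.877), at 6.94 against 8.66 for the next, and for Prkcd (0.881), at 10.23 against 11.02. It also did so in the IP for Gbx2 (0.919), at 2.99 against 5.63, but both values are under 50, and raised to 50 the gap between them is 0.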

How the results depend on the processing

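All 9 members kept a lower mean in the IP under each of the 23 alternatives, and 193 of 207 values kept their side of the threshold. The 14 that lost their call were 12 of Prkcd, 1 of Gbx2 (quantile normalization) and 1 of Ptpn3 (median centring). Member genes called lower were 7 after median centring, 7 after quantile normalization and 9 with the replicate block or on the poly-A controls, and between 8 and 9 with 1 array left out. Over all genes 19.6% were called lower after median centring, 20.5% after quantile normalization and 44.8% with the replicate block. On the poly-A controls 94.5% of all genes were, and 43% to 44.6% with 1 array left out. Member probe sets called lower were 14 on each of the first 2 scales, 21 with no filter and 16 to 17 with 1 array left out. Over all probe sets those shares were 21.2%, 20.8%, 24.9% and 43.9% to 45.7%. The members' median ran from -4.77 on the poly-A controls to -1.89 after median centring. The poly-A controls themselves varied within groups, with array means of 7.17 to 10.55 in the unbound fraction and 10.03 to 11.22 in the IP. Their single constant per group is therefore a loose scale, and results on it carry that limit. Other thalamic genes called lower numbered 10 with median centring, 11 with quantile normalization, 17 on the poly-A controls and 12 to 14 with 1 array left out. The shares of all genes given above stand beside these counts too. Over all probe sets the counts lower and higher were 3789 and 3666 with arrays centred on medians, 3715 and 3091 after quantile normalization, 3714 and 257 at 4-fold and 16823 and 125 on the poly-A controls, which shift every probe set by the same -1.97. Without a filter 1402 were higher and without a fold threshold 1489. Leaving out 1 array gave 7840 to 8163 lower and 775 to 1064 higher. The members' median unbound SD was 0.61 with median centring, 0.64 with quantile normalization, and ran from 0.26 to 0.66 with 1 unbound array left out. With the replicate block 8192 probe sets were lower and 931 higher, the adjusted p of Prkcd was 0.00437 (limma), and no member's call changed. Signal under 50 limits Lef1 and Gbx2 in the IP. Why calls moved was not tested.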

Other observations

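Relatives of the members by sequence family were lower too. Of 13 tested paralogs 10 were called lower and 0 higher in the IP, where 44.2% of all genes were called lower. With values under 50 raised to 50 their median was -1.63, against -0.78 over all genes. In 5 of the 13 the IP was under 50 on all 4 arrays. Tcf7l1 of the TCF/LEF family was at least 2.93-fold lower (limma adjusted p = 4.1e-06), Prkcq, the theta isoform of protein kinase C, at least 4.41-fold, Synpo at least 3.91-fold, and Zic5, at or above 50 on 1 of 4 IP arrays, at least 5.96-fold. The 3 that were not called, named after their values were seen, were Rorb (-0.04 on the log2 scale, limma adjusted p = 0.907), the exchange factor Plekhg5 (-0.53) and Prkcb (-0.92). Rorb stood at 9.22 ± 0.40 in the IP and 9.27 ± 0.42 in unbound RNA (SD, n = 4 per fraction), whereas Rora was 7.85-fold lower, and the difference between these changes was not tested.

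Neighbouring cell groups of the dissection were read from a further pair of lists. Of 9 tested genes of the thalamic reticular nucleus, the GABAergic sheet around the thalamus, 8 were called lower and 0 higher (median -2.28), where 44.2% of all genes were called lower, with Meis2 7.61-fold, Pvalb 6.32-fold, Six3 5.72-fold and Isl1 5.15-fold lower. Ecel1 was not called (-1.18, limma adjusted p = 0.0642). Several of these genes are also expressed by hypothalamic neurons. Of 6 tested habenular genes 4 were called lower and 0 higher, and their median was -1.55 with values under 50 raised to 50. The 2 that were not called were Pou4f1, at or above 50 on 3 of 4 arrays of each fraction (-2.12, limma adjusted p = 0.0792), and Nrg1. Nrg1 reached 50 on all 4 IP arrays but on only 1 of 4 unbound arrays. Its mean was higher in the IP by 0.84 as fitted (limma adjusted p = 0.0873), and by 0.43 with values under 50 raised to 50. Pou4f1, Nrg1 and Ecel1 were named after their values were seen. The peptide precursor Tac1 was 5.31-fold, Etv5 3.60-fold and Nr4a2 2.90-fold lower, and the Wnt inhibitor Wif1, under 50 on all IP arrays, at least 1.99-fold. In the unbound fraction the reticular genes had their lowest median deviation on replicate 1 (-0.48), the array on which the members had their highest.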
